A study of Mus musculus with 24 samples.

Results

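The expression of 10 genes that set or mark the epithelial and mesenchymal states was examined in bulk RNA-seq libraries of MIN6 cells, β cells of a mouse insulinoma kept as a line. The genes were Esrp1, Esrp2, Grhl2, Ovol2 and Cdh1 on the epithelial side and Zeb1, Zeb2, Snai1, Vim and Cdh2 on the mesenchymal side. They were taken by gene symbol from a table of 17696 genes, and all 10 were found. The set was chosen with measured values in view, since Esrp1 had been seen to be on only in the OE lines, so differences between OE and Scr are given as a description without a test.

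The 24 libraries formed 6 groups of 4. Scr cells carried a lentiviral scrambled control of the miRZip type with the reporter copGFP, ZIP cells carried the anti-miR-146a-5p construct miRZip-146a with the same reporter, and OE cells overexpressed miR-146a-5p from a shMIMIC lentiviral vector with Turbo RFP. Each line was cultured without cytokines or for 24 h with the cytokines IL-1β (5 ng/ml), TNFα (10 ng/ml) and IFNγ (100 ng/ml) (Scr+Cy, ZIP+Cy and OE+Cy). All lines were MIN6 cells selected with puromycin and expanded from single clones, so the effect of a vector cannot be told apart from a difference between clones. OE also differed from Scr and ZIP in vector backbone and reporter. Mature miR-146a-5p was not measured by these libraries. By the study's qRT-PCR it was raised in untreated OE cells and unchanged in untreated ZIP cells, both relative to Scr. The study also reported that cytokines raised it in each line relative to the same line untreated. That increase was by far the largest in Scr, smaller in OE and smallest in ZIP, so Scr+Cy is a control with raised miR-146a-5p. Nothing in the labels states that libraries of a group came from separate cultures, so p values measure the spread between libraries, which may be technical.

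Epithelial cells are held together by E-cadherin, the product of Cdh1. ESRP1 and ESRP2 are RNA-binding proteins that promote the epithelial pattern of alternative splicing, and GRHL2 and OVOL2 are transcription factors that maintain epithelial genes. ZEB1, ZEB2 and SNAI1 are transcription factors that repress Cdh1, and ZEB1 and OVOL2 repress each other in many tissues. N-cadherin (Cdh2) and the intermediate filament protein vimentin (Vim) are used as mesenchymal markers, although N-cadherin is also found in pancreatic endocrine cells, which are epithelial in origin.

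Because the lines were made to overexpress or inhibit miR-146a-5p, its sequence is shown with the seed that pairs with target transcripts (bases 2 to 8) in capitals. The mature sequence, from RefSeq on GRCm38.p6, lies on the minus strand at chr11:43374435-43374456.
mmu-miR-146a-5p: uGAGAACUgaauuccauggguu
The site complementary to this seed, AGTTCTC, was searched in annotated 3′ UTRs (GENCODE M21). It was found in no annotated 3′ UTR of the 10 genes, whereas 11.9% of 21020 genes with a 3′ UTR held it in at least 1 of theirs. The absence says only that these letters are not in these windows.

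ZEB and SNAIL proteins bind the E2 box, CACCTG, which reads CAGGTG on the other strand. Promoters were given in RefSeq for 4 of the 10 genes (Vim, Zeb2, Ovol2 and Snai1), as windows of 300 bases from 250 before to 50 after an annotated start. For Vim and Snai1 this was the start of the gene as positioned below. Zeb2 had a window there and others inside the gene. The window of Ovol2 lay inside the gene, so the sequence at its gene start was not searched. The box was found in 1 of the 4, that of Snai1, and in 20.2% of 32851 promoters. The stretch that holds it, in capitals 126 bases before the gene start, is printed on the plus strand at chr2:167538042-167538101.
Snai1: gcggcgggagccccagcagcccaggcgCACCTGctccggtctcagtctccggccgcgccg
Snai1 itself was close to the limit of detection in all groups, as described with the other repressors.

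The libraries held between 26657792 and 37168232 reads in genes (median 30701023). Levels are given as CPM, the reads of a gene relative to the library total after TMM scaling and multiplied by 1000000, and 3 reads correspond to 0.0809 to 0.115 CPM. All 11 β cell markers examined, among them Ins1, Ins2, Pdx1 and Mafa, had reads in each group, with a sum of 24481 to 52440 CPM per library. A list of 9 connective tissue markers, among them Col1a1, Col3a1 and Dcn, summed to 21.1 CPM in Scr 1, 61.8 in ZIP 1 and 65.7 in Scr+Cy 1 but to 0.568 to 8.06 in the other 21 libraries. Peripheral nerve markers (8 genes) were highest in the same libraries, at 125, 187 and 285 CPM against 62.3 to 108 CPM in the others. A list of 9 blood and bone marrow markers summed to 22.2 CPM in ZIP+Cy 3 and to at most 4.67 elsewhere. Lists for leukocytes (7 of 8 genes measured), endothelium (5 of 7), skeletal muscle (3 of 8) and fat (2 of 6) summed to at most 5.14 CPM in any library. Some results that could rest on these 4 libraries (Scr 1, ZIP 1, Scr+Cy 1 and ZIP+Cy 3) are given with and without them. The others are given with all libraries only. The number after a group name is the replicate number of the library.

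Esrp1, at chromosome 4, 11331933 to 11386783 (mm10, minus strand), was expressed in OE cells and was at or near 0 in Scr and ZIP cells. Its level in the 4 OE libraries was 108, 103, 97.5 and 83.8 CPM, and in OE+Cy 101, 108, 110 and 88.9 CPM. In the 16 Scr and ZIP libraries with or without cytokines it did not exceed 0.15 CPM. The 13443 reads of OE stood against 3 in Scr, a ratio after scaling of 4465 (95% interval 1528 to 21655), and against 3 in ZIP, a ratio of 3830 (1310 to 18575). With cytokines, 12500 reads in OE+Cy stood against 7 in Scr+Cy, a ratio of 1801 (874 to 4481). ZIP+Cy had no read in any library, so the level in OE+Cy was at least 970-fold higher, counted against 3 reads per library. These intervals cover only the counting error of reads pooled over the 4 libraries of a group, not the spread between libraries. The set was chosen on this pattern of Esrp1, so the ratios and intervals describe it and lend it no support.

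Esrp2, at chromosome 8, 106131183 to 106136974 (minus strand), was also highest in OE cells, at lower levels than Esrp1. In OE it was measured at 6.08, 5.03, 4.97 and 3.21 CPM and in OE+Cy at 6.08, 5.79, 3.98 and 4.31 CPM. In Scr it was measured at 0.216, 0.316, 0.313 and 0.248 CPM, and in ZIP at 0.0366, 0.109, 0.031 and 0.0336 CPM. The 4 ZIP libraries all lay below the 4 Scr libraries. Esrp2 fell in ZIP relative to Scr by 2.32 on the log2 scale (SE 0.562, adjusted p = 0.00273 by edgeR's quasi-likelihood test), a difference between 6 and 37 reads in total. With cytokines it again fell by 2.16 (SE 0.484, adjusted p = 0.00138), between 10 reads in ZIP+Cy and 50 in Scr+Cy. Both calls were kept in all 16 alternative settings, with log2 differences of −2.88 to −2.12 and −2.70 to −1.73. The level of Esrp2 in Scr and ZIP was under 1 CPM in every library, so these are changes within a low range. An antisense gene, 1810019D21Rik, overlaps Esrp2 and had 457 reads in all libraries against 1381 for Esrp2. Its mean was 0.12 CPM in Scr, 0.107 in ZIP and 1.52 in OE, and the sources used here do not state whether strand was used to separate the pair.

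The paralogs differed in level within OE. Per kilobase of annotated exon, the mean was 15.5 CPM for Esrp1 and 1.11 CPM for Esrp2 in OE. In Scr it was 0.00344 and 0.0629 CPM, so the order of the paralogs was the opposite in OE and Scr.

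**Figure D1:**
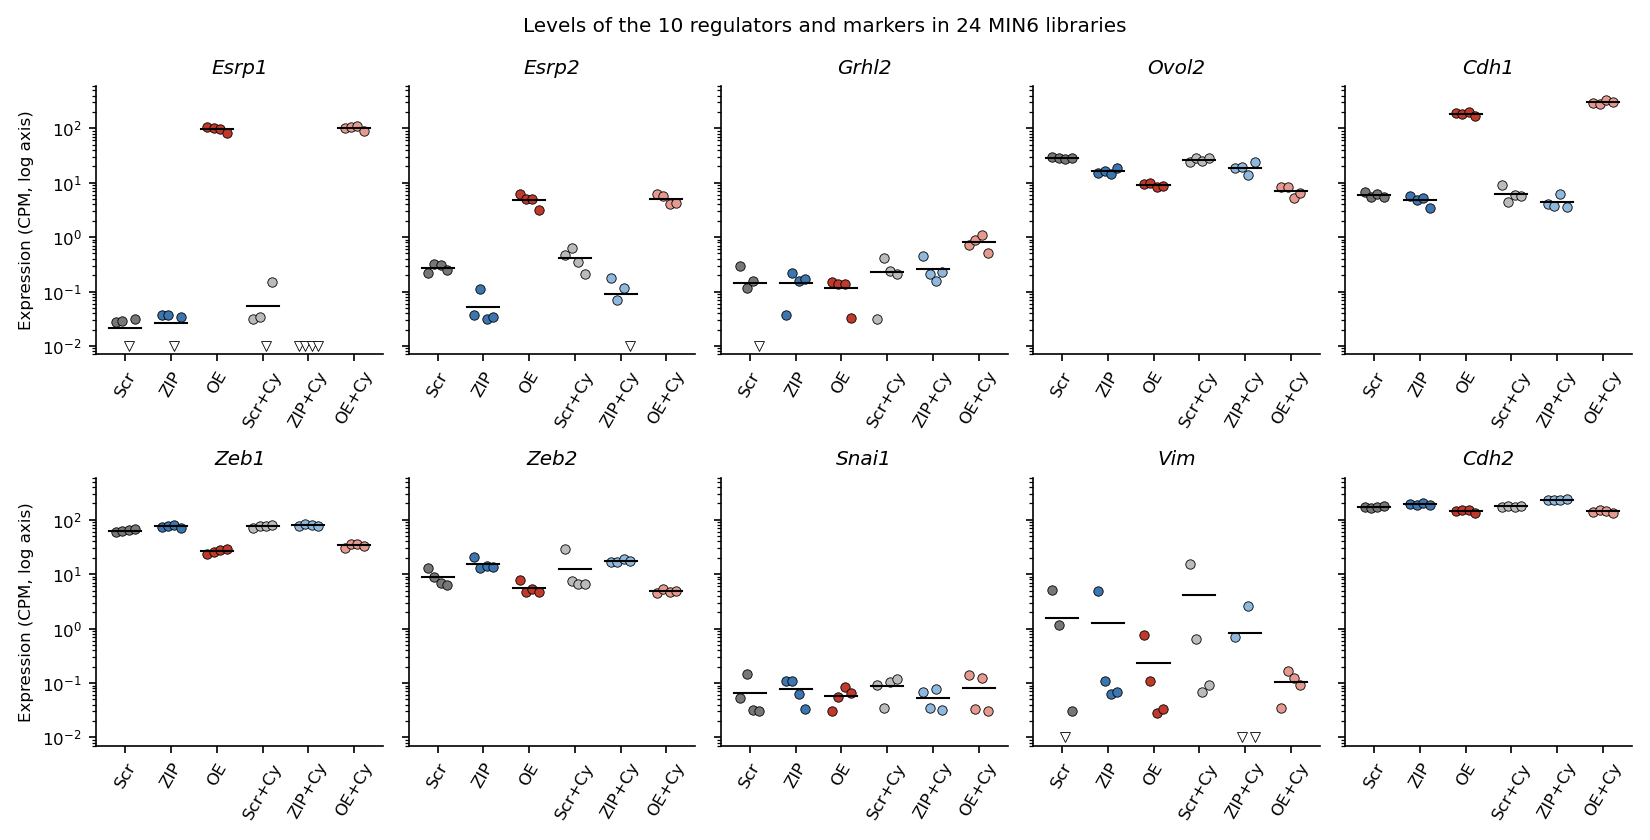
Expression of the 10 genes in each library (CPM, log axis), by group; circles are libraries, horizontal lines are group means of 4, and open triangles mark libraries without a read, placed at the bottom of the axis. Esrp1, Esrp2 and Cdh1 stand apart in OE and OE+Cy, and the Vim means of Scr, ZIP and Scr+Cy follow 1 library each.

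Cdh1, at chromosome 8, 106603350 to 106670247 (plus strand), was measured in OE at 195, 180, 203 and 167 CPM, against 6.72, 5.52, 6.09 and 5.48 CPM in Scr. The means were 186 ± 16.4 and 5.95 ± 0.581 CPM (SD, n = 4), a log2 difference of 4.96. In ZIP it was 4.8 ± 0.936 CPM, and the libraries of ZIP and Scr overlapped (log2 difference −0.32, SE 0.183, adjusted p = 0.217 by edgeR). With cytokines, the mean was 4.4 ± 1.28 CPM in ZIP+Cy and 6.21 ± 1.97 in Scr+Cy. That difference had an adjusted p of 0.0426 (edgeR) but, at −0.51 on the log2 scale, stayed under the 1.5-fold limit used for a call. It passed this limit without ZIP+Cy 3 (−0.72) or without Scr+Cy 2 (−0.65). The difference shrank to −0.28 without Scr+Cy 1, and was −0.48 without the 4 libraries with markers of other tissues. Adjusted p values ranged from 0.00479 to 0.414 over 16 alternatives by edgeR or DESeq2.

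Cytokines raised Cdh1 in OE cells. Its level in OE+Cy was 290, 280, 326 and 303 CPM, and all 4 libraries lay above the 4 OE libraries. The increase was 0.69 on the log2 scale (SE 0.133), or 1.61-fold (adjusted p = 0.000154 by edgeR), and was called in all 16 alternative settings. In Scr the response was 0.07 (SE 0.176), with 8.99, 4.34, 5.87 and 5.65 CPM in Scr+Cy. The difference of both responses, tested as an interaction, was 0.62 (SE 0.22, adjusted p = 0.0485), the only one of the 10 genes called. This call was narrow: it was kept in 3 of the 16 fits that each left out 1 library (OE 3, OE+Cy 1 or Scr+Cy 1) and lost in the other 13, with adjusted p values of 0.00134 to 0.119 over all alternatives. Without the 4 libraries that carried markers of other tissues it was 0.81 (SE 0.158, adjusted p = 0.00134).

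Cdh2, at chromosome 18, 16588877 to 16809246 (minus strand), was well expressed in all groups. Its mean was 171 ± 7.4 CPM in Scr, 193 ± 7.25 in ZIP and 146 ± 7.79 in OE. With cytokines, Scr+Cy had 176 ± 4.88 CPM, ZIP+Cy had 236 ± 6.06 and OE+Cy had 143 ± 7.24 (SD, n = 4). The order from the lowest group was OE+Cy, OE, Scr, Scr+Cy, ZIP and ZIP+Cy, and OE+Cy overlapped with OE as Scr overlapped with Scr+Cy. ZIP libraries, at 186 to 202 CPM, lay above Scr libraries, at 162 to 179 CPM, by 1.13-fold (adjusted p = 0.00645). The ZIP+Cy libraries lay above those of Scr+Cy by 1.34-fold (adjusted p = 2.12e-07) and above those of ZIP by 1.22-fold (adjusted p = 5.87e-05), all by edgeR. None of these differences reached 1.5-fold, and the difference of the cytokine responses of ZIP and Scr was not called (0.25, SE 0.0677, adjusted p = 0.367 by edgeR, and 0.0433 by DESeq2).

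Per kilobase of exon, Cdh2 exceeded Cdh1 in Scr (means of 21.2 and 1.3 CPM) and in ZIP (24 and 1.05 CPM). In OE the order was the opposite, with 18.1 CPM for Cdh2 and 40.7 for Cdh1, and in OE+Cy the values were 17.7 and 65.5 CPM. Cdh1 thus stood far above Scr in OE while Cdh2 stood at 0.854-fold of Scr.

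Zeb1, at chromosome 18, 5591860 to 5775468 (plus strand), was the most abundant of the repressors. It was measured at 59.8, 61.9, 64.8 and 67.5 CPM in Scr and at 23.4, 25.5, 27.6 and 29.7 CPM in OE, where all libraries lay below those of Scr (0.418-fold). OE+Cy had 30.5, 36.2, 36.3 and 32.4 CPM and Scr+Cy had 70.7, 77.6, 77 and 79 CPM. The differences with cytokines stayed under the 1.5-fold limit, at 1.2-fold in Scr (adjusted p = 0.00772) and 1.28-fold in OE (adjusted p = 0.000227), without overlap of libraries in either line. In ZIP the mean was 75.7 ± 4.61 CPM, 1.19-fold that of Scr (adjusted p = 0.00601), and in ZIP+Cy it was 79.2 ± 3.41 CPM, 1.04-fold that of Scr+Cy (adjusted p = 0.576, all by edgeR).

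Zeb2, at chromosome 2, 44983512 to 45117442 (minus strand), was higher in ZIP cells. It was measured at 20.9, 12.8, 14.1 and 13.6 CPM in ZIP and at 13.2, 8.88, 6.81 and 6.41 CPM in Scr, and in either group library 1, which carried connective tissue markers, was the highest. With all libraries the increase was 0.79 (SE 0.341), called at an unadjusted p of 0.0295 by edgeR's quasi-likelihood test but not at its adjusted p of 0.0884. Levels without the 4 libraries with markers of other tissues were 13.5 ± 0.635 CPM in ZIP and 7.37 ± 1.33 in Scr (SD, n = 3), and the increase was 0.87 (SE 0.149, adjusted p = 0.000132). The call was lost without ZIP 1 (0.61), Scr 3 (0.71) or Scr 4 (0.67), and adjusted p values ranged from 5.28e-06 to 0.243 over 16 alternatives.

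With cytokines, Zeb2 was measured at 16.7, 17, 18.7 and 17.5 CPM in ZIP+Cy and at 29, 7.61, 6.69 and 6.58 CPM in Scr+Cy. Scr+Cy 1 was thus the highest of all 24 libraries, and the difference of 0.48 (SE 0.335) was not called (adjusted p = 0.313 by edgeR). When the 4 libraries were left out it was 1.30 (SE 0.15, adjusted p = 9.51e-07), and 17 ± 0.413 CPM stood against 6.96 ± 0.566 (SD, n = 3). With the replicate number as a block, which pairs these libraries, it was 0.67 and was called (adjusted p = 0.0472). OE had a mean of 5.68 ± 1.45 CPM and OE+Cy of 4.87 ± 0.431. Per kilobase of exon, Zeb2 had 0.443 CPM and Zeb1 6.19 CPM in Scr. Antisense genes overlap Zeb2 (Zeb2os, 26 reads in all libraries) and Zeb1 (Gm10125, 40 reads).

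Snai1, at chromosome 2, 167538195 to 167542811 (plus strand), had 6 to 11 reads in total in each group and at most 5 in a library. Its levels were 0.0302 to 0.144 CPM, and no difference was detectable at this depth. Its relatives outside the set are given below with the other transcription factors.

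Grhl2, at chromosome 15, 37233036 to 37363568 (plus strand), was low in all cultures without cytokines, with means of 0.142 CPM in Scr, 0.145 in ZIP and 0.114 in OE. It rose in OE+Cy, where it was measured at 0.73, 0.881, 1.11 and 0.516 CPM against 0.151, 0.136, 0.138 and 0.0327 CPM in OE. All 4 OE+Cy libraries lay above the OE libraries, and the reads numbered 99 against 16. The increase was 2.76 on the log2 scale (SE 0.643, adjusted p = 0.00106 by edgeR) and was called in all 16 alternatives. In Scr+Cy the 4 libraries had 1, 12, 7 and 7 reads against 11, 4, 5 and 0 in Scr, and the response was 0.61 (SE 0.665, adjusted p = 0.607). Leaving out the 4 libraries gave a response of 1.60 (SE 0.637, adjusted p = 0.105 by edgeR), which met the unadjusted limit of a call. The difference of the responses of OE and Scr was not called (2.15, SE 0.932, adjusted p = 0.111 by edgeR). Grhl2 was thus not shown to respond differently in OE.

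Ovol2, at chromosome 2, 144305176 to 144332080 (minus strand), was highest in Scr cells, although its product maintains epithelial genes. It was measured at 29.6, 28.1, 27.1 and 28.4 CPM in Scr, at 15.4, 16.4, 14.4 and 18.8 CPM in ZIP and at 9.4, 9.93, 8.39 and 8.65 CPM in OE. No library of a line overlapped with those of another. Ovol2 fell in ZIP relative to Scr by 0.80 on the log2 scale (SE 0.132, adjusted p = 4.54e-05 by edgeR), and this call was kept in all 16 alternatives. The level in OE was 0.322-fold that of Scr. With cytokines, Scr+Cy had 23.7, 28.1, 25.6 and 28.8 CPM and ZIP+Cy had 18.5, 19.5, 13.8 and 23.7 CPM, a difference of −0.49 (SE 0.131, adjusted p = 0.00674) under the 1.5-fold limit. Without ZIP+Cy 4 it was −0.62 and was called, the 1 call in 16 alternatives. The difference was −0.37 without ZIP+Cy 3 and −0.41 without the 4 libraries with markers of other tissues. OE+Cy had 7.13 ± 1.62 CPM, 0.781-fold the level in OE (adjusted p = 0.0491 by edgeR) and also under the limit.

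Vim, at chromosome 2, 13574311 to 13582826 (plus strand), was close to 0 in most libraries. The reads numbered 188, 41, 0 and 1 in Scr, 134, 3, 2 and 2 in ZIP, 504, 19, 2 and 3 in Scr+Cy, and 20, 0, 67 and 0 in ZIP+Cy. In OE they numbered 25, 4, 1 and 1, and in OE+Cy 1, 5, 4 and 3. The libraries with the most Vim reads were the 4 that carried markers of connective tissue or blood, with 15.5 CPM in Scr+Cy 1, 5.07 in Scr 1, 4.9 in ZIP 1 and 2.57 in ZIP+Cy 3, whereas the other 20 libraries had at most 1.18 CPM. Zeb2 was also highest in its group in each of these 4 libraries. Vim was not called in any comparison with all libraries or without these 4. Its group means of 1.57 CPM in Scr and 1.29 in ZIP were 0.403 ± 0.672 and 0.0795 ± 0.026 without them (SD, n = 3). The part of the other tissue in the levels of Vim and Zeb2 was not tested further.

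**Figure D2:**
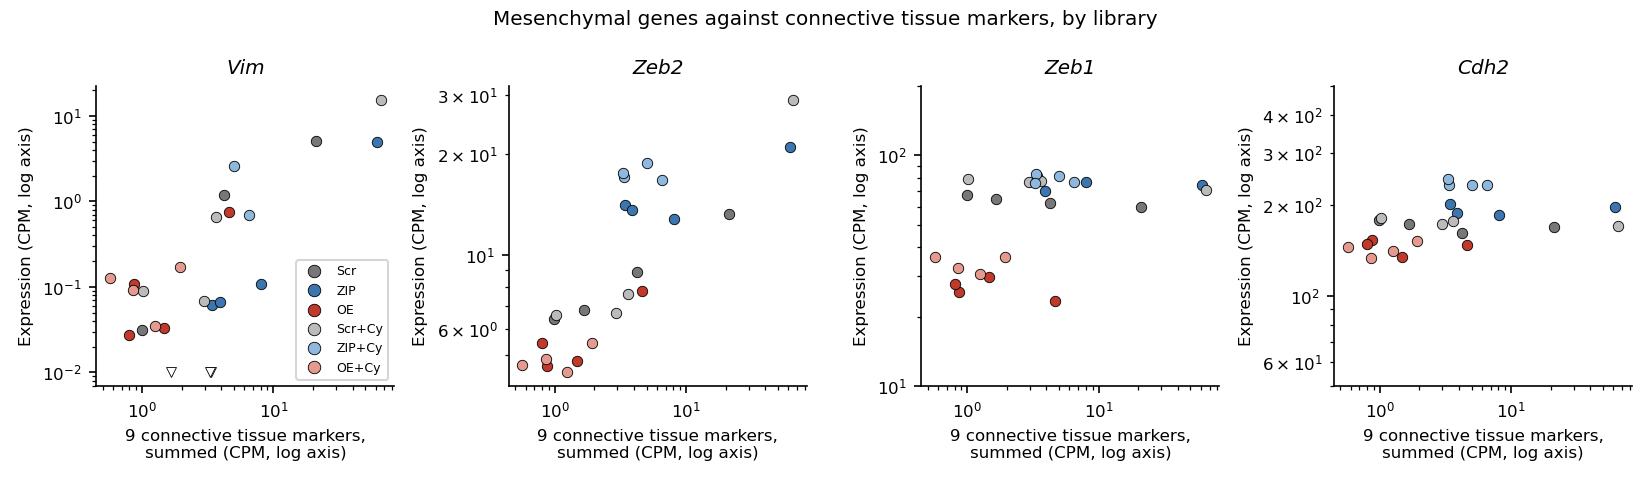
Levels of Vim, Zeb2, Zeb1 and Cdh2 (CPM, log axis) against the summed level of 9 connective tissue markers (CPM, log axis) in the 24 libraries, coloured by group; open triangles mark libraries without a Vim read. The 3 libraries on the right (Scr 1, ZIP 1 and Scr+Cy 1) have the highest Vim levels and the highest Zeb2 level of their group, while Zeb1 and Cdh2 are not the highest of their group in them.

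Of the 10 genes, 3 were called between ZIP and Scr, where 14.9% of all genes were called. Zeb2 was called higher (7.97% of all genes) and Esrp2 and Ovol2 were called lower (6.91%). The same 3 genes were called without the 4 libraries. Between ZIP+Cy and Scr+Cy, 2 genes were called (15.8% of all genes), none higher (7.1%) and both lower (8.67%). These were Esrp2 and Esrp1, and the call of Esrp1 rested on 7 reads in Scr+Cy, of which 5 were in Scr+Cy 4, against 0 in ZIP+Cy. Without Scr+Cy 4 it was lost (adjusted p = 0.181 by edgeR, in a range of 0.0166 to 0.181 over 16 alternatives). Lower Esrp2 was thus called in both ZIP and ZIP+Cy, and lower Ovol2 in ZIP. Higher Zeb2 was called in both conditions without the 4 libraries, a choice made after the data were seen.

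With cytokines, edgeR and DESeq2 called none of the 10 genes in Scr, where 10.6% of all genes were called (7.88% higher and 2.67% lower), and none in ZIP, where 12.5% were called (7.28% higher and 5.21% lower). At an unadjusted p under 0.05 by edgeR there was 1 gene in each, Zeb1 in Scr and Cdh2 in ZIP, with folds under the limit as given above. In OE, 2 genes were called (21% of all genes), both higher (13%) and none lower (8.02%), namely Cdh1 and Grhl2. The response of 1 gene, Cdh1, differed between OE and Scr, where 20% of all genes were called. None was called for a different response between ZIP and Scr by edgeR (2 at an unadjusted p under 0.05, and 1 by DESeq2), where 0.0565% of all genes were called.

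**Figure D3:**
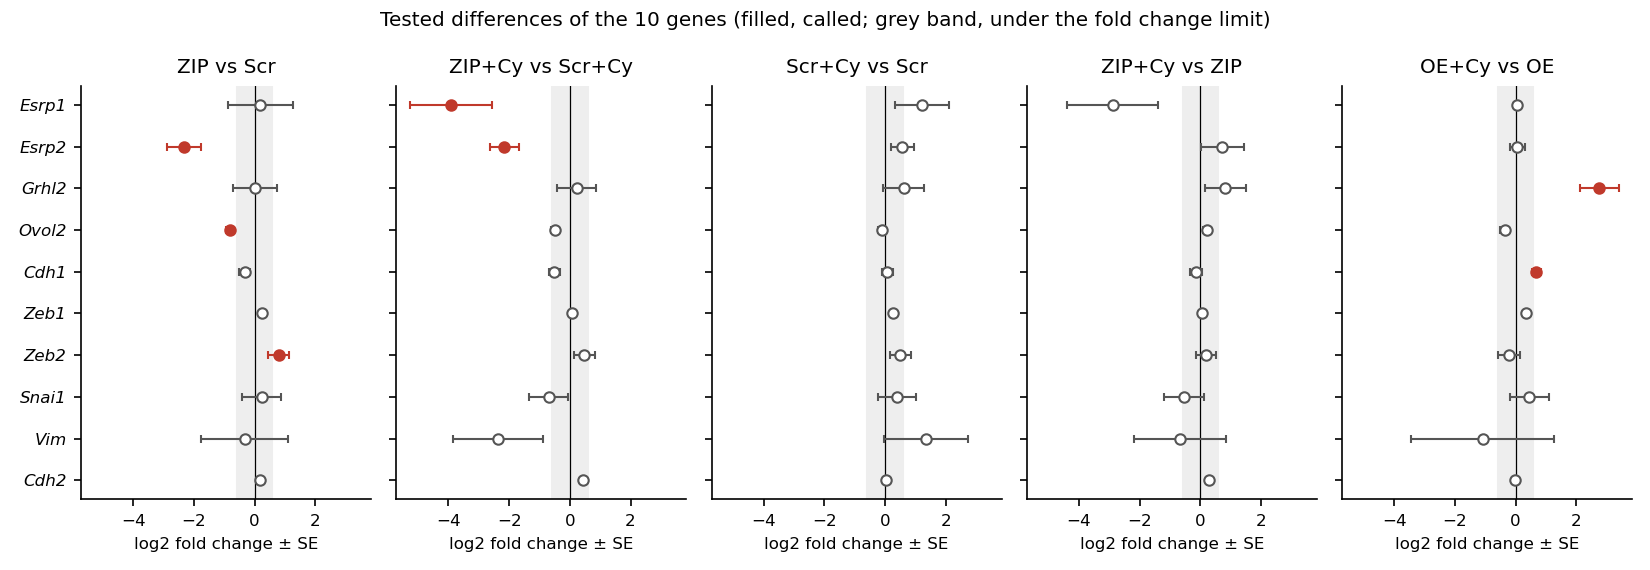
Log2 fold changes with standard errors of the 10 genes in the 5 tested comparisons; filled red circles are called genes, open circles are not called, and the grey band spans differences under 1.5-fold. Esrp2 lies to the left in both comparisons of ZIP with Scr, and Cdh1 and Grhl2 lie to the right in OE+Cy vs OE.

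The set had been chosen on the differences between OE and Scr, so their counts are a description. Between OE and Scr the libraries of 6 genes did not overlap, 3 higher in OE (Esrp1, Esrp2 and Cdh1) and 3 lower (Zeb1, Ovol2 and Cdh2). Of all genes, 46.5% did not overlap and 25.7% passed the limits for a call (11.3% higher and 14.4% lower). Between OE+Cy and Scr+Cy, 8 genes did not overlap, 4 higher and 4 lower, with Grhl2 and Zeb2 in addition. There, 46.2% of all genes did not overlap and 28.5% passed the limits (13.7% higher and 14.8% lower).

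A list of 31 measured genes of epithelial junctions and keratins was then compared. The shares of all genes called, given above for each comparison, are the background for the counts of this and later lists. In OE, 25 stood past the limits above Scr and 1 below, with a median log2 difference of 2.33 against 0.00 over all genes. Epcam, a cell surface protein of epithelia, had 0.127 CPM in Scr and 125 ± 5.51 in OE. Krt19, a keratin of simple epithelia and ducts, had no read in the 16 Scr and ZIP libraries and 15.8 ± 2.35 CPM in OE. Tjp1, which encodes the tight junction scaffold ZO-1, was the 1 gene below Scr (259 ± 17.4 against 458 ± 37.7 CPM). With cytokines, 25 genes again stood above and 1 below Scr+Cy, and Rab25, a small GTPase of epithelial membrane traffic, had 36.1 ± 2.34 CPM in OE+Cy and 0.0258 in Scr+Cy. These values belong to the contrast on which the 10 genes were chosen and are not independent of it. Cytokines raised 9 of the 31 genes in OE and lowered none, with St14, a membrane protease, from 0.876 to 9.02 CPM (3.35, SE 0.272, adjusted p = 4.22e-10) and Cldn7, a claudin, from 1.91 to 6.67 CPM (1.81, SE 0.278, adjusted p = 9.29e-06).

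In ZIP, 3 of these 31 genes were called higher (7.97% of all genes) and 6 lower (6.91%), with a median of −0.34. With cytokines 1 was called higher and 6 lower, none of them with at least 1 CPM. Cytokines raised 7 genes and lowered 1 in Scr, and raised 5 and lowered 3 in ZIP. F11r, which encodes junctional adhesion molecule A, rose from 41.6 ± 2.22 to 101 ± 21.5 CPM in Scr (1.27, SE 0.101, adjusted p = 5.62e-10) and from 30.3 ± 1.37 to 88.2 ± 9.64 CPM in ZIP (1.54, SE 0.103, adjusted p = 2.26e-11, both by edgeR). The numbers higher and lower were 4 and 1 in Scr and 7 and 0 in ZIP when the 4 libraries were left out.

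**Figure D4:**
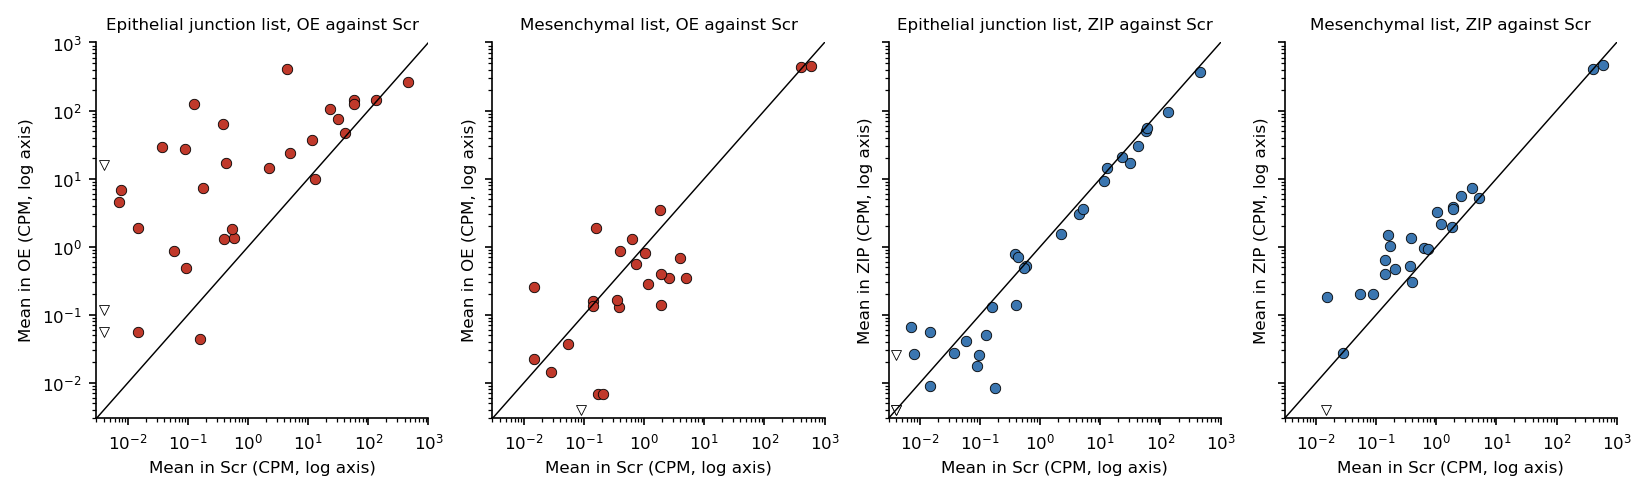
Mean levels (CPM, log axes) of the listed epithelial junction and mesenchymal genes in OE (left pair) and ZIP (right pair) against Scr; each symbol is a gene, the line marks equal levels, and open triangles are genes without a read in 1 of the groups. Of the 31 junction genes, 25 lie past the limits above the line in OE, such as Epcam with 125 against 0.127 CPM, and Tjp1 lies past them below it, and most of those with at least 1 CPM lie near or below it in ZIP.

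The mesenchymal list followed the 4 libraries. Of 25 measured genes, 5 were called higher and none lower in ZIP (median 0.93), and 2 higher and 9 lower in ZIP+Cy relative to Scr+Cy (median −0.33). These numbers became, without the 4 libraries, 6 and 1 (median −0.20) and 2 and 0 (median 0.05). Collagen genes such as Col3a1 (3.01 ± 5.18 CPM in Scr+Cy) and Sparc (9.36 ± 18.1 CPM in Scr+Cy), which encodes a matrix protein of connective tissue, had standard deviations above their means there. Fn1, which encodes fibronectin, was called higher in ZIP at an unadjusted p but not at its adjusted p (5.63 ± 3.99 against 2.58 ± 1.92 CPM, adjusted p = 0.0878 by edgeR).

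Cytokines called 4 mesenchymal genes higher and none lower in Scr (3 and 1 without the 4 libraries). These included S100a4, a calcium-binding protein of motile cells (1.35, SE 0.328, adjusted p = 0.00447), and Col5a1, whose 175 reads in Scr+Cy had a mean of 1.35 ± 2.61 CPM. In ZIP, 2 were higher and 6 lower (4 and 2 without the 4 libraries), with Fbn1, which encodes the matrix protein fibrillin-1, rising from 5.22 to 10.6 CPM (1.03, SE 0.212, adjusted p = 0.000713). In OE, 6 rose and none fell. Axl, a receptor tyrosine kinase, rose from 0.164 to 7.72 ± 4.98 CPM (5.54, SE 0.976, adjusted p = 5.13e-05), and Fbn1 from 0.347 to 2.62 CPM (2.89, SE 0.309, adjusted p = 4.59e-08). The called increases in OE+Cy were thus 9 of 31 junction genes and 6 of 25 mesenchymal genes, against 13% of all genes. Between OE and Scr, 5 mesenchymal genes stood past the limits higher and 5 lower, with Fbn1 at 0.347 against 5.05 CPM and Tgfbi, a matrix protein induced by TGFβ, at 0.138 against 1.89 CPM. With cytokines the numbers were 6 higher and 11 lower, and 7 and 3 without the 4 libraries.

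Other transcription factors of the epithelial and mesenchymal programmes were measured for 16 of 21 genes listed. In ZIP, none was called higher (7.97% of all genes) and 6 were called lower (6.91%). The largest falls of genes with at least 1 CPM were those of 2 mesenchymal factors, Twist2, from 5.46 to 0.868 CPM (−2.66, SE 0.238, adjusted p = 4.55e-09), and Snai2, the relative of Snai1 that encodes SLUG, from 8.25 to 3.75 CPM (−1.13, SE 0.145, adjusted p = 1.42e-06). With cytokines 4 were called lower and none higher, again with Twist2 (−2.24, SE 0.235, adjusted p = 6.04e-08) and Snai2 (−1.05, SE 0.146, adjusted p = 4.88e-06). Lower Twist2 and Snai2 thus accompanied the higher Zeb2 in ZIP. When the 4 libraries were left out, 5 and 3 were called lower and none higher. With all libraries, DESeq2 called 1 higher in ZIP and none in ZIP+Cy. In OE, 5 stood above Scr and 3 below, with Grhl1, a factor of epithelia (11.9 ± 2.1 against 2.96 CPM), above, and Twist2 (0.0752 against 5.46 CPM) and Tcf4 (79.8 against 127 CPM) below.

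Cytokines raised 5 of these 16 factors and lowered none in Scr and in ZIP, and raised 6 and lowered none in OE. Ehf, an ETS factor of epithelia, rose from 0.0469 to 9.15 CPM in Scr, from 0.127 to 11.6 in ZIP and from 0.045 to 8.92 in OE. Klf5, a Krüppel-like factor of epithelia, rose by 1.56 (SE 0.118) in Scr, 2.02 (SE 0.122) in ZIP and 2.53 (SE 0.11) in OE, where it reached 66.6 ± 5.51 CPM. The epithelial factors that responded in all lines were therefore outside the set of 10.

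Splicing regulators other than Esrp1 and Esrp2 were measured for 20 genes. None was called higher and 1 lower in ZIP, namely Srrm4, a neuronal and endocrine splicing factor of microexons, with 22.2 ± 1.24 against 40.9 ± 1.16 CPM (−0.88, SE 0.115, adjusted p = 1.6e-06). With cytokines 2 were lower, again with Srrm4 (−0.78, SE 0.116, adjusted p = 1.27e-05). With cytokines, edgeR called none in Scr (8 had an unadjusted p under 0.05, and DESeq2 called none) or in ZIP (7, and 1 by DESeq2). Srrm4 fell in OE (−0.68, SE 0.11, adjusted p = 1.73e-05). In OE relative to Scr, 2 stood past the limits higher (Srrm4, 78 CPM, and Mbnl2, 177 against 113 CPM) and 4 lower. Of the latter, Rbfox1 had 2.55 against 20.2 CPM and Celf2 62.8 against 128 CPM. The values are sums over each gene, so the splice forms that ESRP1 acts on were not analysed here.

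In TGFβ and BMP signalling, which induces mesenchymal genes in many tissues, 25 genes were measured. In ZIP, 1 was called higher (7.97% of all genes) and 4 lower (6.91%). Tgfb2, a TGFβ ligand, rose from 0.491 to 3.31 CPM (2.74, SE 0.361, adjusted p = 2.05e-06), while Smad6, an inhibitor of BMP signalling, fell by 1.21 (SE 0.234, adjusted p = 0.000297) and Id3, a BMP target, by 1.19 (SE 0.148, adjusted p = 8.18e-07). With cytokines 1 was higher and 5 lower (1 and 2 without the 4 libraries with markers of other tissues). Tgfb2 had 7.84 CPM in ZIP+Cy against 0.772 in Scr+Cy (3.34, SE 0.343, adjusted p = 4.35e-08 by edgeR). Cytokines called Tgfb1 higher in Scr (0.61), ZIP (0.84) and OE (0.64), with adjusted p values of 0.00237, 9.7e-05 and 0.000211. In OE, 5 stood higher than Scr and 4 lower, with Tgfb1 at 37.4 against 11 CPM and the coreceptor Tgfbr3 at 0.531 against 19.6 CPM.

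Among 13 genes of corepressors and chromatin enzymes that work with ZEB and SNAIL proteins, none was called in ZIP (median of −0.14 against 0.00 over all genes) or with cytokines in any line, by edgeR or DESeq2. At an unadjusted p under 0.05 regardless of fold there were 8 in ZIP and 5, 7 and 11 with cytokines in Scr, ZIP and OE. Dnmt3b was called lower in ZIP+Cy (−0.70, SE 0.156, adjusted p = 0.00127). In OE, Dnmt3b stood above Scr (4.69 against 2.5 CPM). Of 15 other cadherin and catenin genes, 2 were called higher and 2 lower in ZIP. Ctnnb1, which encodes β-catenin, rose from 283 ± 11 to 503 ± 17.5 CPM (0.83, SE 0.0467, adjusted p = 1.72e-12) and, with cytokines, from 300 to 596 CPM (0.99, SE 0.0468, adjusted p = 8.94e-14). Cdh8 fell from 162 to 102 CPM (−0.68, SE 0.0798, adjusted p = 3.97e-07). In OE, cytokines raised Ctnnd1, which encodes p120-catenin, from 161 to 248 CPM (0.63, SE 0.0506, adjusted p = 3.88e-10), together with the increase of Cdh1, and lowered Cdh4 (−1.01, SE 0.0987) and Cdh8 (−0.97, SE 0.0822). Scr+Cy had higher Cdh6 than Scr (1.08, SE 0.204, adjusted p = 0.000399).

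Of 15 intermediate filament genes other than Vim, 1 was called higher and 2 lower in ZIP, none with at least 1 CPM. In ZIP+Cy relative to Scr+Cy, 2 were higher and 1 lower, with the neurofilament gene Nefm at 445 ± 63.9 against 269 ± 42.2 CPM (0.72, SE 0.214, adjusted p = 0.0129). In OE, 4 stood higher than Scr and 4 lower. The keratin Krt18 had 63.5 ± 9.29 against 0.385 CPM, the neurofilament gene Nefl had 89.5 against 335 CPM and nestin (Nes) had 61.4 against 214 CPM. Cytokines lowered Nefl (−0.89, SE 0.152) and Nefh (−0.62, SE 0.127) in OE.

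The levels of the 10 genes were set beside their neighbours, defined as genes within 2000000 bases with a mean of at least 10 CPM. The 15 neighbours of Esrp1 had a median log2 difference of −0.23 between OE and Scr (−0.61 to 0.14). The 50 neighbours of Cdh1 had a median of 0.06 (−0.97 to 1.04). Esrp2 ends 466375 bases before the start of Cdh1, and both stood far above Scr in OE while the genes around them did not. For Zeb1, 9 neighbours had a median of −0.12 (−1.21 to 0.30), and for Ovol2, 18 neighbours had a median of 0.12 (−0.72 to 1.60), against −1.64 for Ovol2 itself. In ZIP relative to Scr, the 56 neighbours of Esrp2 had a median of −0.02 (−0.64 to 0.40) and those of Ovol2 a median of 0.13 (−0.31 to 1.77). Zeb2 had 1 such neighbour and Cdh2 had 2.

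**Figure D5:**
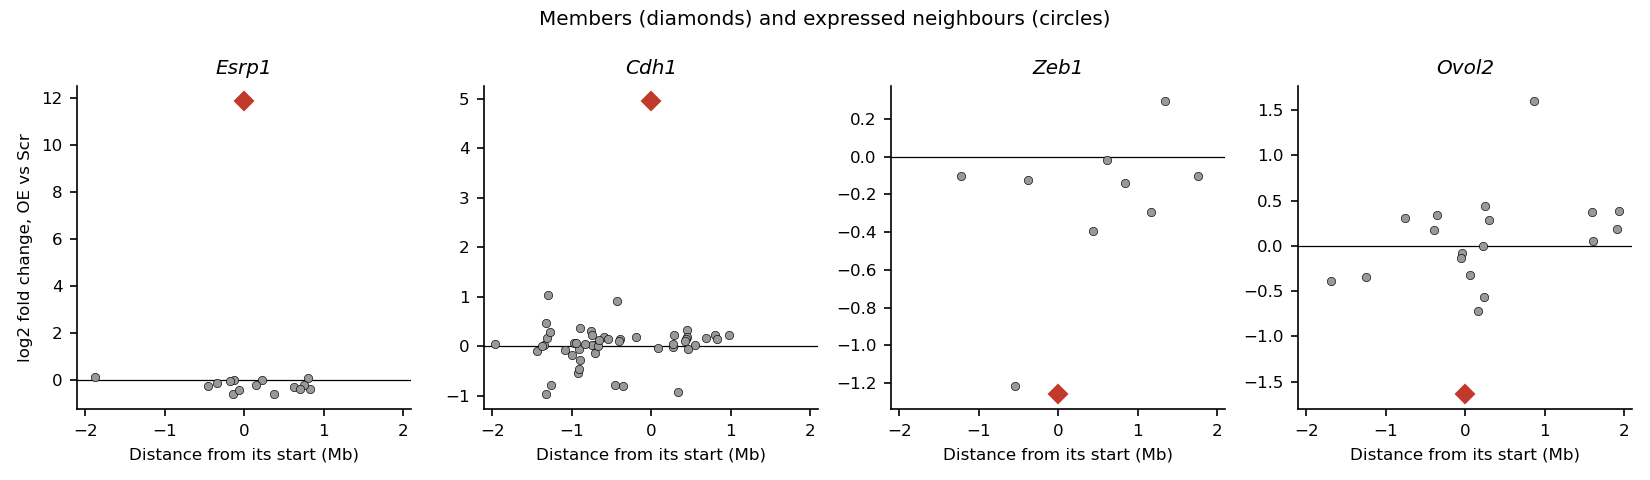
Log2 fold changes between OE and Scr of Esrp1, Cdh1, Zeb1 and Ovol2 (diamonds) and of neighbouring genes with a mean of at least 10 CPM (circles) by distance from the start of the gene; the vertical scale differs between panels. Esrp1, whose fitted value rests on 3 reads in Scr, Cdh1 and Ovol2 lie outside the range of their neighbours, and 1 neighbour of Zeb1 lies close to it.

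The genes most like Esrp1 were ranked by Pearson correlation of log2 CPM over the 24 libraries, among 13310 genes with at least 1 CPM in any group. The set was chosen on this pattern of Esrp1, the libraries share lines and treatments, and a gene at 0 outside OE could enter only through its level in OE, so the coefficients describe a pattern of groups and support nothing further. Among the 5 highest were Krt19 (0.9959), Smim22 (0.9958), Ap1m2 (0.9952) and Ocln (0.9935), the last of which encodes the tight junction protein occludin. Smim22 had no read in the 16 Scr and ZIP libraries, whereas Ap1m2 had 4 and Ocln 12. Of the other members with at least 1 CPM in any group, Cdh1 had a coefficient of 0.99, Esrp2 of 0.94, Vim of −0.26, Zeb2 of −0.73, Cdh2 of −0.80, Ovol2 of −0.88 and Zeb1 of −0.96.

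A list of 10 ductal and acinar markers, of which 7 were measured, moved with the same lines. Its sum was 92.7 to 134 CPM in OE and 89.8 to 197 CPM in OE+Cy, against 0.465 to 1.86 CPM in Scr and 1.18 to 2.71 CPM in ZIP. These markers were named after their values were seen. The sum consisted mainly of Spp1, a secreted phosphoprotein of ducts (mean of 91.2 CPM in OE) and Krt19, while the ductal factor Sox9 and the acinar enzymes Cela1 and Cel had no read in OE. The summed β cell markers were 48641 to 52440 CPM in OE, 33564 to 36031 in ZIP and 24481 to 31669 in Scr, so the sums of both lines lay above Scr. This sum consisted mainly of Ins2, Iapp, Chga and Ins1. Means of Pdx1 (627 against 824 CPM), Mafa (716 against 1050), Nkx6-1 (167 against 254) and Nkx2-2 (162 against 199) were lower in OE than in Scr. Those of the other β cell markers were higher in OE. With cytokines the summed β cell markers were 30765 to 40313 CPM in OE+Cy, below OE, 30457 to 34773 in ZIP+Cy and 26211 to 28181 in Scr+Cy. Their part in the higher Cdh1 and Grhl2 of OE+Cy was not tested. In bulk samples, more cells of a type and more RNA per cell cannot be told apart, and the part of another cell state in the levels of Esrp1, Esrp2 and Cdh1 was not tested.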

How the data were processed

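RNA-seq libraries (KAPA mRNA HyperPrep) of the 24 MIN6 samples were assigned to groups from their labels. According to the study's methods, STAR aligned the reads to mm10, Partek Flow quantified them against RefSeq transcripts, and genes with fewer than 10 reads in total were removed. The labels' processing notes name STAR 2.7.8a and Partek 11.0.24.0204, and the use of strand is not given in the sources used here. The values used are the unnormalized estimated counts that the authors deposited (30.3% not whole). A second table deposited by the authors gives a normalized signal, each estimated count divided by the factor of its library, and it entered no test.

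Estimated counts were rounded, and all 17696 genes entered 1 model of 6 group means in edgeR 4.0.16 (R 4.3.3, TMM, glmQLFit and glmQLFTest), tested on simulated data first. The standard error is the log2 fold change divided by the square root of F. Calls required a 1.5-fold difference and an unadjusted p under 0.05, after the study's limits, and for interactions an adjusted p under 0.05. Adjustment followed Benjamini and Hochberg over all 17696 genes. The members and gene lists were chosen with earlier results of these data known. In each list, the genes named are the 2 largest rises and the 2 largest falls among called genes with at least 1 CPM in either group, and some of these are not reported here. Exon lengths, 3′ UTRs and positions were taken from GENCODE M21 and the deposited coordinates.

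Alternatives were DESeq2 1.42.0, its size factors, plain CPM, the filterByExpr filter, fits of only the groups compared, a replicate block, adjusted p values and leaving out each library. Leaving out 4 libraries with markers of other tissues, and number 1 of every group, was chosen after the data were seen. Replicate numbers, which the labels share between groups, paired the libraries in 4 of the 5 tested comparisons by correlations of deviations from group means (0.163 to 0.662 over 13310 genes). In ZIP vs Scr the lowest was 0.0867, so these libraries were not taken as paired.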

Additional observations from a re-analysis of the deposited data

Results flagged for a closer look

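In 10 of 59 groups of 4 libraries, 1 library stood apart from the other 3 by Dixon's criterion at the 95% level, which chance gives in about 1 in 20 groups. Zeb2 was high in Scr+Cy replicate 1 (29 CPM, others 6.58 to 7.61) and in ZIP replicate 1 (20.9 CPM, others 12.8 to 14.1). Vim was high in Scr+Cy replicate 1 (15.5 CPM, others 0.0686 to 0.654), in ZIP replicate 1 (4.9 CPM, others 0.062 to 0.109) and in OE replicate 1 (0.756 CPM, others 0.0276 to 0.109). These 3 libraries also had the highest sum of connective tissue markers of their group. Cdh2 was high in ZIP+Cy replicate 4 (245 CPM, others 233 to 234).

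The other 4 such libraries rest on a few reads. Esrp1 was at 0 in Scr replicate 3 (others 0.027 to 0.031 CPM) and at 0 in ZIP replicate 3 (others 0.0336 to 0.0366 CPM). Esrp2 was at 0.109 CPM, or 3 reads, in ZIP replicate 2, and Grhl2 was at 0.0327 CPM, or 1 read, in OE replicate 4.

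The cytokine response of Cdh1 differed between OE and Scr by 0.62 on the log2 scale, in a test of the interaction that was narrow and is described with Cdh1 in the report.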

How the results depend on the processing

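Esrp2 and Ovol2 in ZIP vs Scr, Esrp2 in ZIP+Cy vs Scr+Cy, and Cdh1 and Grhl2 in OE+Cy vs OE kept their calls under all 16 alternatives of each comparison, and no called difference of the 10 genes turned its direction. The number called was 2 to 3 in ZIP vs Scr and 2 in OE+Cy vs OE. In ZIP+Cy vs Scr+Cy it was 1 to 4 when 1 library was left out, against 2 with all. In Scr+Cy vs Scr it was 1 (Grhl2) without the 4 libraries with markers of other tissues and 1 without number 1 of every group, and 0 to 1 when 1 library was left out (Zeb2, without Scr 1 or Scr+Cy 4). In ZIP+Cy vs ZIP it was 1 (Vim) without number 1 of every group and 0 to 1 when 1 library was left out (Esrp1, without ZIP 3). For the response of OE against Scr it was 0 to 1 over the libraries left out (Cdh1, or Grhl2 without Scr 4). For the response of ZIP against Scr it was 1 with DESeq2 (Cdh2, adjusted p = 0.0433), where all genes called numbered 10 in edgeR, 41 in DESeq2 and 45 with the replicate block. In the fits with the replicate block no other call of the 10 genes changed than that of Zeb2 in ZIP+Cy vs Scr+Cy (log2 difference 0.67). Between OE and Scr the number without overlap was 6 to 7, and with cytokines it was 8 throughout. The causes were not tested. Esrp1 outside OE, Snai1 and, without cytokines, Grhl2 rest on few reads per library. Vim ranged from 0 to 188 reads within Scr and from 2 to 504 within Scr+Cy. Of the counts of listed genes, 174 differed by more than 1.5 times from the value given and 1618 did not.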
